A study of Arabidopsis thaliana with 18 samples.

Results

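The Arabidopsis miRNAs with registry numbers from miR447 to miR870, leaving out miR822, miR827, miR828, miR839 and miR857, were followed through 18 small RNA libraries. They were chosen by number alone and made up 101 of the 422 mature miRNAs in the table. The libraries came from whole seedlings of Arabidopsis thaliana Col-0, 7 days old, with no transgene or mutation in any group. The conditions were control, 1 h of heat stress (HS) at 37°C, and HS with a further 2 h at 22°C (recovery). For each condition, 3 libraries were made from total RNA and 3 from the RNA recovered with an antibody to the endogenous AGO1 protein (AGO1-IP), which gave 6 groups of 3. No mock immunoprecipitation was analysed here, so that RNA carried along with the beads and RNA held by AGO1 cannot be told apart. Because the tissue was whole seedlings, fewer cells that make a miRNA and less of it per cell cannot be told apart either.

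A miRNA is cut by DICER-LIKE 1 from a hairpin precursor as a duplex, of which 1 strand, the guide, is kept in an ARGONAUTE protein while the passenger strand is usually lost. AGO1, the main miRNA effector of Arabidopsis, mostly holds small RNAs that begin with uridine (U). The numbers studied here stand mostly for evolutionarily young miRNAs, found in Arabidopsis and its relatives and often encoded by a single locus. Several of them have known targets, among them immune receptor genes, MYB factors of flavonol synthesis, the MADS-box gene AGL16 and the DNA methylation gene CMT3.

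Sequences and places printed here are those of RefSeq for TAIR10.1, to which each of the 422 miRNAs could be matched by name. The 101 members came from 72 annotated genes. Of these mature sequences, 69 began with U, 16 with A, 9 with C and 7 with G, and 77 were 21 nt long. In the genome 85 of them had a single exact copy. Both strands of 4 precursors are shown first, because the 2 strands of each behaved differently in AGO1-IP. Capitals mark the seed, bases 2 to 8 from the 5′ end, and U stands for uridine.
miR824-5p: uAGACCAUuugugagaaggga
miR824-3p: cCUUCUCAucgauggucuaga
miR472-5p: aUGGUCGAaguaggcaaaauc
miR472-3p: uUUUUCCUacuccgcccauacc
miR840-5p: aCACUGAAggaccuaaacuaac
miR840-3p: uUGUUUAGgucccuuaguuuc
miR846-5p: cAUUCAAGgacuucuauucag
miR846-3p: uUGAAUUGaagugcuugaauu
The strands of miR824-5p (chr4:12625128-12625148, plus strand) and miR824-3p (chr4:12625721-12625741, plus strand) lie far apart in a long hairpin on chromosome 4. The first lies opposite the coding sequence of AT4G24413 and the second in no other gene. Both strands of miR472 (chr1:4182266-4182286 and chr1:4182143-4182164, minus strand) fall in an exon of AT1G12290, and both of miR840 (chr2:771492-771513 and chr2:771385-771405, minus strand) in an exon of AT2G02750. The miR846 strands (chr1:22577426-22577446 and chr1:22577662-22577682, plus strand) lie in no other annotated gene. All 4 precursors had 1 strand that began with U and 1 that did not.

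A second set is shown because these sequences were the most abundant, changed most between fractions or had the smallest p-values between treatments.
miR858a: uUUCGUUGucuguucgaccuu
miR858b: uUCGUUGUcuguucgaccuug
miR847: uCACUCCUcuucuucuugaug
miR823: uGGGUGGUgaucauauaagau
miR842: uCAUGGUCagauccgucaucc
miR865-5p: aUGAAUUUggaucuaauugag
miR852: aAGAUAAGcgccuuaguucug
miR780.2: uUCUUCGUgaauaucuggcau
The miR858a (chr1:26773695-26773715, minus strand) and miR858b (chr1:26772907-26772927, plus strand) sequences are the same run of bases shifted by 1 base, so that their seeds differ. How reads were divided between the 2 rows is not given in the sources used here. No other gene is annotated at miR847 (chr1:2165675-2165695, plus strand), miR823 (chr3:4496826-4496846, minus strand), miR842 (chr1:22577194-22577214, plus strand) or miR865-5p (chr5:5169998-5170018, plus strand). The sequence of miR852 (chr4:8336302-8336322, plus strand) lies in an intron of AT4G14500, and that of miR780.2 (chr4:8504145-8504165, minus strand) opposite the coding sequence of AT4G14810. Within the set 67 members overlapped no other gene, and 15 lay in an intron on the strand of the host gene. The host genes of the latter included DCL1 itself (miR838) and the chromatin remodeller PKL (miR862).

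The members took a small share of the miRNA reads, and a smaller one in AGO1-IP than in total RNA. Libraries held 321918 to 1059362 miRNA reads in total RNA and 1374777 to 5745126 in AGO1-IP, and 64 to 80 members had a read in a given library. The members' share of miRNA reads was 1.09% ± 0.220 (SD, n = 3) in total RNA control, 1.47% ± 0.284 after HS and 1.39% ± 0.304 after recovery. In AGO1-IP it was 0.566% ± 0.0201 in control, 0.603% ± 0.0628 after HS and 0.617% ± 0.114 after recovery. All 9 AGO1-IP libraries, at 0.488% to 0.706%, lay below all 9 total RNA libraries, at 0.957% to 1.66%, whereas the 3 conditions overlapped within each fraction. The separation of all 9 from all 9 rested on the 2 most abundant members. Without miR858b and miR824-3p the shares were 0.531% to 0.941% in total RNA and 0.427% to 0.567% in AGO1-IP and overlapped. Within control (0.558% to 0.751% against 0.453% to 0.484%) and within HS (0.644% to 0.941% against 0.430% to 0.544%) they still did not overlap. The families miR156, miR159 and miR166 held 39.9% to 44.4% of miRNA reads in total RNA and 42.4% to 56.5% in AGO1-IP, so that shares of reads are relative to a few very abundant families.

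Levels are given as CPM, reads scaled to 1000000 miRNA reads of the library and not corrected for length, since the annotated mature sequences are all 20 to 24 nt long. The most abundant member was miR858b, whose targets are the flavonol regulators MYB11, MYB12 and MYB111. It had 2415, 2802 and 4512 CPM in total RNA control, 3346, 5196 and 5788 under HS and 2236, 4722 and 4902 after recovery. In AGO1-IP it had 875, 823.5 and 1215 CPM in control, 1075, 912 and 1128 under HS and 2064, 592 and 1329 after recovery, all below every total RNA library. The 5 members with the highest mean CPM, miR858b, miR824-3p, miR846-3p, miR824-5p and miR858a, held 63.2% of the members' reads in total RNA and 45.6% in AGO1-IP.

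**Figure D1:**
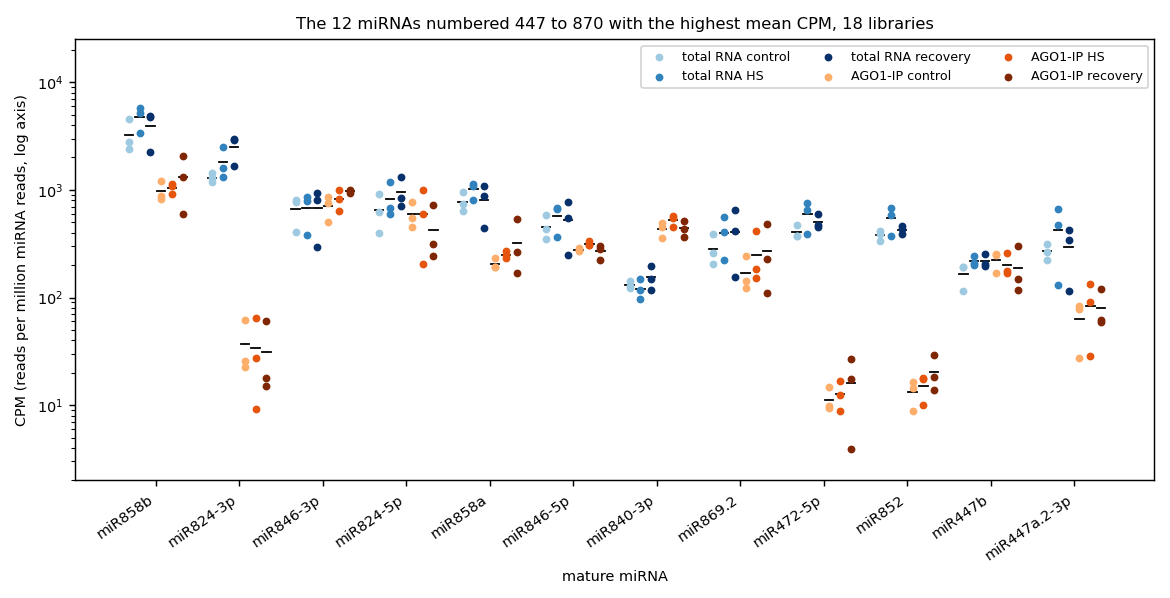
CPM of miRNA reads (log axis) of the 12 members with the highest mean CPM over 18 libraries, with 1 point per library, colours for the 6 groups and a line for the mean of 3 libraries. The AGO1-IP points of miR824-3p, miR472-5p and miR852 lie far below their total RNA points, those of miR840-3p lie above theirs, and the 3 conditions overlap within most fractions.

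The order below miR858b depended on the fraction. In total RNA, miR824-3p ranged from 1185 to 2996 CPM (median 1612) and miR824-5p from 396 to 1307 CPM (median 708), and these 2 ranges overlapped. In AGO1-IP, miR824-3p ranged from 9.22 to 64.7 CPM (median 25.8) and miR824-5p from 205 to 1001 CPM (median 553), with no overlap. The ranges of miR846-3p, a regulator of jacalin-related lectin genes, were 296 to 929.5 CPM (median 786) in total RNA and 504 to 1007 CPM (median 862) in AGO1-IP and overlapped widely. The ranges of miR858a were 446.6 to 1142 CPM (median 882) in total RNA and 170.0 to 537 CPM (median 234) in AGO1-IP. Its total RNA range overlapped those of miR824-5p and miR846-3p, so that these neighbours could not be ordered beyond their spread.

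Many members were barely read. A mean of at least 20 counts was reached by 39 of 101, and 40 had a read in all 18 libraries. No read was found in any library for 4 members, miR447c-3p, miR773b-3p, miR832-3p and miR836, and 23 more had 1 to 20 reads in all libraries together. All 3 rows of miR774, a regulator of F-box genes, were of this kind, as were miR854 and miR855, which arise from Athila retrotransposon copies. Exact copies cannot be told apart by reads. The 5 rows of miR854 have 1 sequence and together had 18 reads in total RNA (7, 7 and 4 in control, HS and recovery) and 7 in AGO1-IP (4, 1 and 2). Likewise miR447a-3p and miR447b are identical, as are miR781a and miR781b, and their rows had similar counts, so that these counts are uncertain for each copy.

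The comparison of AGO1-IP with total RNA asked which members were over- or under-represented in AGO1 relative to other miRNAs. After filtering on low counts 58 of the 101 members were tested among 269 miRNAs, with edgeR's quasi-likelihood test, TMM scaling and Benjamini-Hochberg adjustment over all 269 at 0.05, which is the source of every adjusted p given for AGO1-IP against total RNA. Of the members, 29 were higher and 15 lower in AGO1-IP, against 39.4% of all miRNAs tested that were higher and 39.8% that were lower. The median log2 fold change was 0.75 over the 58 members and -0.16 over all 269. The 2 sets differ in first base, since 41 of the 58 members begin with U and 114 of the other 211 miRNAs tested. Among those that begin with U the median was 1.02 for the members and 1.30 for the others. These directions are relative, because TMM factors were 1.49 to 1.88 in total RNA and 0.464 to 0.649 in AGO1-IP, with 1.07 in replicate 1 of AGO1-IP recovery, which stood apart. Without a scaling factor the median of all 269 moved from -0.16 to -1.62. There 7 members were higher and 28 lower, beside 46 and 167 of all 269. With RLE scaling 19 members were higher and 21 lower, beside 78 and 137 of all 269. Called in the same direction with TMM, RLE and no scaling factor were 7 members higher and 15 lower, a count chosen after the values were seen. The 7 were 12.1% of the members tested, beside 18.5% of the other miRNAs and 17.1% of all. The 15 were 25.9% of the members, beside 43.6% of the others and 39.8% of all. Leaving out replicate 1 of AGO1-IP recovery gave 32 higher and 15 lower. The matching counts over all miRNAs are not printed here, so that no change particular to the members is read from this. The study made both kinds of library from the same biological replicates, and with each pair of libraries as a block 31 were higher (40.1% of all miRNAs tested) and 15 lower (40.9%). The members gained with the block were miR869.2 (0.77 ± 0.24, adjusted p = 0.0102) and miR781b (0.86 ± 0.37, adjusted p = 0.0465).

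**Figure D2:**
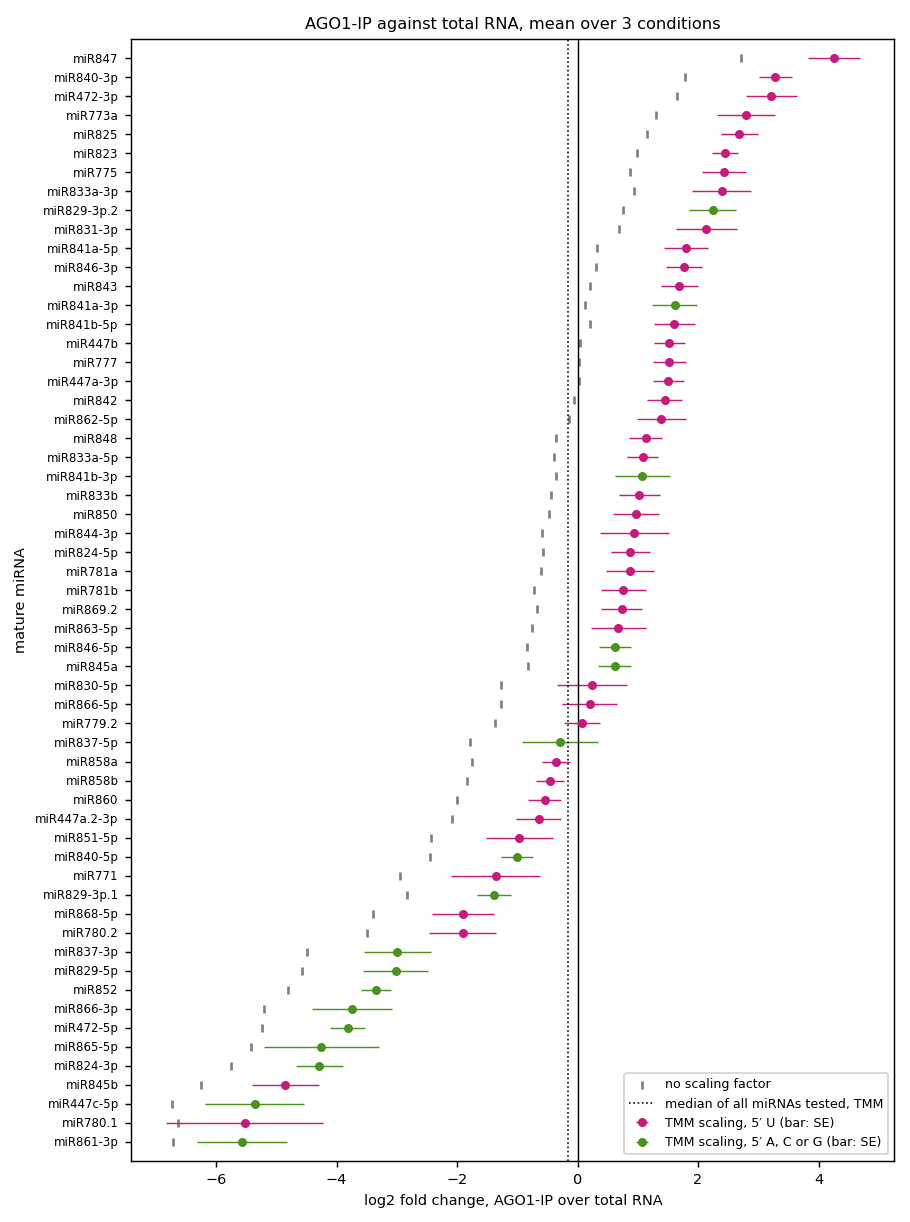
Log2 fold change of AGO1-IP over total RNA for the 58 members tested, as points with SE bars under TMM scaling, coloured by whether the 5′ base is U, with grey ticks for the values without a scaling factor and a dotted line at the median of all miRNAs tested (-0.16). The values run from -5.57 for miR861-3p to 4.25 for miR847, and the values without a scaling factor lie to the left by a similar distance throughout.

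The role lists go by registry number and hold both strands where both are annotated, so that a listed strand need not act on the target named. In the list for transcription and auxin signalling, miR847 stood highest and miR824-3p lowest. The miR847 sequence targets the auxin repressor gene IAA28. Its counts were 11, 14 and 8 in total RNA control, 1, 5 and 2 under HS and 7, 17 and 10 after recovery, while AGO1-IP libraries held 54 to 599 reads. In CPM its AGO1-IP libraries (25.7 to 130.1) lay above all total RNA libraries (2.71 to 24.1). The log2 fold change was 4.25 ± 0.43 (adjusted p = 6.6e-09), and 2.71 without a scaling factor. The miR824-5p strand, which targets AGL16, a regulator of stomatal development and flowering time, had a log2 fold change of 0.88 ± 0.32 (adjusted p = 0.0171) that was reversed without a scaling factor (-0.58). Leaving out replicate 3 of AGO1-IP recovery ended this call, with a value of 0.64. Its partner miR824-3p fell by 4.29 ± 0.39 (adjusted p = 1.3e-09), from the ranges given above. For miR858a and miR858b the values were -0.36 ± 0.23 and -0.46 ± 0.23, neither of which passed with TMM scaling. Both were called lower with RLE scaling (-0.93 and -1.03) and without a scaling factor (-1.75 and -1.84).

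The strands of miR472, a regulator of coiled-coil NBS-LRR immune receptor genes, changed places between the fractions. In total RNA miR472-5p had 370.0 to 762 CPM (median 473) and miR472-3p 14 to 59.5 CPM (median 28.4). In AGO1-IP miR472-5p had 3.91 to 27.1 CPM (median 12.3) and miR472-3p 34.2 to 196 CPM (median 65.1). The 3p strand, which pairs with the receptor transcripts, rose by 3.21 ± 0.42 (adjusted p = 4.1e-07) and the 5p strand fell by 3.82 ± 0.30 (adjusted p = 1.1e-10), both called with all 3 scalings. The other member of this list that was tested, miR863-5p, had a value of 0.67 ± 0.46 (adjusted p = 0.17), from 0 to 8 reads per total RNA library.

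Both chromatin regulators that could be tested were higher in AGO1-IP with all 3 scalings. The miR823 sequence targets CMT3, the chromomethylase that keeps CHG methylation. It had 199, 141 and 113 CPM in total RNA control, 112, 87.4 and 102 under HS and 142, 106 and 148 after recovery, which made a range of 87.4 to 199 CPM. In AGO1-IP it had 222, 182 and 207 CPM in control, 190.0, 227 and 256 under HS and 431, 216 and 384 after recovery. The ranges of the 2 fractions overlapped slightly, and the log2 fold change was 2.45 ± 0.21 (adjusted p = 6.0e-10). For miR773a, which guides cleavage of a transcript related to the DNA methyltransferase MET1, total RNA held 0 to 7 reads per library and AGO1-IP 5 to 79, with a log2 fold change of 2.79 ± 0.48 (adjusted p = 1.8e-05). The third regulator, miR778, had 11 reads in total RNA and 2 in AGO1-IP and was not tested.

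The 2 strands of miR840, which targets the single-stranded DNA-binding protein gene WHIRLY3, went opposite ways. The 3p strand had 96.3 to 196 CPM (median 128) in total RNA and 354 to 567 CPM (median 456) in AGO1-IP, with no overlap. The 5p strand had 90.3 to 244 CPM (median 129) and 13 to 38.5 CPM (median 23.9), again with no overlap but in the other direction. Their log2 fold changes were 3.28 ± 0.27 (adjusted p = 2.1e-10) and -1.01 ± 0.26 (adjusted p = 0.00117), both called with all 3 scalings.

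The jacalin-lectin regulators, encoded side by side on chromosome 1, were higher in AGO1-IP with TMM scaling, and this depended on the scaling. The values were 1.45 ± 0.29 for miR842, 1.77 ± 0.30 for miR846-3p and 0.61 ± 0.27 for miR846-5p, and all 3 passed with TMM scaling. With RLE scaling miR846-5p was reversed (-0.024). Without a scaling factor the value was 0.30 for miR846-3p and reversed for miR842 (-0.062) and miR846-5p (-0.84). The TMM call of miR846-5p was also lost when replicate 2 of total RNA control (0.63), replicate 1 or 2 of AGO1-IP control (0.62 and 0.59), replicate 1 or 2 of AGO1-IP HS (0.58 and 0.60) or replicate 2 of AGO1-IP recovery (0.50) was left out. The miR842 CPM overlapped between fractions, at 46.6 to 169 CPM (median 74.6) in total RNA and 44.7 to 139 CPM (median 87) in AGO1-IP.

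Among 10 members linked to metabolism and transport, 7 were tested, of which 3 rose and 3 fell in AGO1-IP with TMM scaling. Over all miRNAs tested 39.4% rose and 39.8% fell. With all 3 scalings 1 of these members rose and 3 fell, beside 17.1% and 39.8% of all. The galactosyltransferase regulator miR775 rose by 2.43 ± 0.37 (adjusted p = 3.3e-06), with 7 to 39 reads in total RNA and 47 to 550 in AGO1-IP. The identical sequences miR447a-3p and miR447b, which target 2-phosphoglycerate kinase-related genes, had values of 1.51 ± 0.26 and 1.52 ± 0.26, which shrank to 0.016 and 0.033 without a scaling factor. A neighbouring product of the same hairpin, miR447a.2-3p, had -0.65 ± 0.37 and did not pass with TMM scaling. It was called lower with RLE scaling (-1.26) and without a factor (-2.09). The members that fell with TMM scaling were miR447c-5p, miR780.1 and miR780.2. The fall of miR780.2 rested on replicates 1 and 2. In control, HS and recovery its replicate 3 had 10.3, 12.2 and 14.0 CPM in total RNA and 9.42, 8.73 and 10.3 in AGO1-IP. No AGO1-IP library held a read of miR780.1 against 51 reads in total RNA. In CPM, without a scaling factor, it was at least 95.9-fold lower in AGO1-IP when 3 counts over the 9 libraries are taken as the floor. With TMM scaling the fitted fall was smaller, at a log2 value of -5.53 ± 1.31, against -6.63 without a factor. The cation exchanger gene CHX18 is the target of miR780.

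Of the retrotransposon-linked members, miR845a and miR845b begin with C and U and went apart. These sequences match the tRNA primer binding site of LTR retrotransposons. Total RNA held 6 to 53 reads of miR845b per library and AGO1-IP 0 to 3, although the AGO1-IP libraries were deeper, and the log2 value fell by 4.85 ± 0.55 (adjusted p = 4.8e-08). The miR845a value was 0.61 ± 0.27 and was reversed with RLE scaling (-0.023) and without a factor (-0.82). Its TMM call was lost when replicate 2 of total RNA control (0.58), replicate 1 or 2 of AGO1-IP control (0.56 and 0.63), replicate 2 of AGO1-IP HS (0.52) or replicate 2 or 3 of AGO1-IP recovery (0.58 and 0.58) was left out. Among members without an assigned role 34 were tested, of which 16 rose and 8 fell with TMM scaling. Over all miRNAs tested 39.4% rose and 39.8% fell. With all 3 scalings 1 of these members rose and 8 fell, beside 17.1% and 39.8% of all. The rises included miR825 (2.68 ± 0.30, adjusted p = 4.4e-08) and the falls miR852 (-3.34 ± 0.24, adjusted p = 4.0e-11). For miR852, total RNA held 332 to 677 CPM (median 412) and AGO1-IP 8.8 to 29 CPM (median 16.4), with no overlap. Chosen after its values were seen, miR861-3p had 55 reads in total RNA and 1 in AGO1-IP, a ratio of CPM of 310.4 (exact 95% interval 53.4 to 12481, for counting error only). The DCL1 intron miRNA, miR838, had 0 to 20 reads per library and was not tested.

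The ratio of the 2 strands of a precursor within a library contains no scaling factor. It was computed, after the values had been seen, as log2 of 5p over 3p reads with 0.5 added to each. In 9 precursors both strands were in the table and 1 of them had a mean of at least 20 counts, and miR829 has 2 annotated 3p sequences, which gave 10 pairs. Only the 8 pairs whose rarer strand had at least 20 reads in the 9 libraries of each fraction were tested, because a ratio to a strand at or near 0 reads moves with the depth of the library. For miR824 the 5p strand made up 19.6% to 39.4% of the reads of both strands in total RNA (median 32%) and 92.2% to 95.7% in AGO1-IP (median 94.6%). For miR472 it made up 86.3% to 97.1% in total RNA and 4.22% to 44.2% in AGO1-IP, the highest being replicate 1 of AGO1-IP recovery. For miR840 it made up 38.7% to 62.7% in total RNA and 2.89% to 9.48% in AGO1-IP. In each of these 3 precursors the strand that gained in AGO1-IP was the one that begins with U.

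The fractions also did not overlap for miR829-5p against miR829-3p.2, of which neither begins with U. The 5p strand, which begins with A, made up 46.2% to 90.9% of the reads of this pair in total RNA and a median of 4.23% in AGO1-IP, where it had 0 to 12 reads per library. The 3p.2 sequence begins with C and lies next to miR829-3p.1 in the hairpin. Over the 9 libraries of each fraction, total RNA held 174 reads of miR829-5p, 707 of miR829-3p.1 and 82 of miR829-3p.2, and AGO1-IP held 42, 562 and 676.

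**Figure D3:**
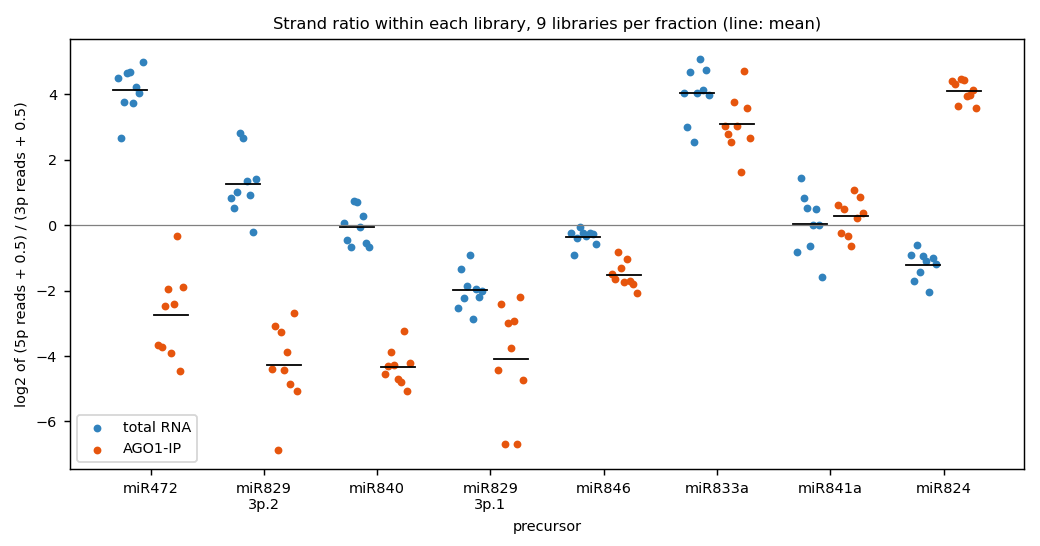
Log2 ratio of 5p to 3p reads, with 0.5 added to each, for the 8 strand pairs tested, in 9 total RNA (blue) and 9 AGO1-IP (orange) libraries, with a line for the mean. The 2 pairs of miR829 share their 5p strand. The fractions do not overlap for miR472, miR829 with 3p.2, miR840 and miR824, whose means differ by -6.89, -5.54, -4.27 and 5.31.

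The mean difference of this log2 ratio between AGO1-IP and total RNA was 5.31 for miR824, -4.27 for miR840, -5.54 for miR829 with 3p.2 and -6.89 for miR472, the last equal to a 119-fold change of the ratio. The difference was -1.15 for miR846, whose fractions overlapped. All 9 library pairs had the same sign in each of these 5, and an exact two-sided permutation test that flips the signs of the 9 pairs (512 arrangements) gave p = 0.00391, the smallest it can give, and 0.00625 after Benjamini-Hochberg adjustment over the 8 strand pairs. For miR829 with 3p.1 the difference was -2.10, negative in 8 of 9 library pairs (adjusted p = 0.0104 in this permutation test), and the fractions overlapped. The pairs that did not pass were miR833a (-0.95, adjusted permutation p = 0.0848), both strands of which begin with U, and miR841a (0.24, adjusted permutation p = 0.566). A permutation within conditions that ignores the pairing changed the call of miR833a (adjusted p = 0.0349) and no other. The untested pairs were miR862, an intron product of PKL, with 118 reads of the 5p and 2 of the 3p strand in total RNA and 645 and 2 in AGO1-IP, and miR844, with 10 and 103 reads in total RNA and 12 and 426 in AGO1-IP. Without replicate 1 of AGO1-IP recovery the differences were 5.33 for miR824, -4.41 for miR840, -5.47 for miR829 with 3p.2 and -7.20 for miR472.

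The first base, which the choice of members did not use, went with the change between fractions. The 41 tested members that begin with U had a median log2 fold change of 1.02 (range -5.53 to 4.25), with 24 higher and 4 lower in AGO1-IP. The 17 that begin with another base had a median of -2.99 (range -5.57 to 2.24), with 5 higher and 11 lower. The other 211 miRNAs tested went the same way. Their median was 1.30 for the 114 that begin with U, with 68 higher and 12 lower, and -4.11 for the 97 that do not, with 9 higher and 80 lower. All 7 members higher with every scaling begin with U, as do 37 of the 39 other miRNAs higher with every scaling. Among the 10 that begin with A the median was -3.01, and among the 6 that begin with C it was 0.61. The difference of the medians, U minus other bases, was 3.34 ± 0.661 (SD over the 9 AGO1-IP libraries, each set against the total RNA mean of its condition), and it ran from 2.05 in replicate 1 of AGO1-IP recovery to 4.09. Members that went against this pattern were miR780.1, miR780.2, miR845b and miR868-5p, which begin with U and were lower. For miR780.2 this rested on replicates 1 and 2. Against the pattern were also miR829-3p.2, miR841a-3p, miR841b-3p, miR845a and miR846-5p, which do not begin with U and were higher with TMM scaling. These values are descriptions of sequences that differ in count as well: where the mean count reached 20, the medians were 1.26 (30 members) and -1.01 (9 members). By length the medians were 0.64 for 42 members of 21 nt and 1.13 for 13 of 22 nt, against -0.27 and -3.75 for the other miRNAs of these lengths.

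The comparisons of treatments asked whether HS or recovery changed these miRNAs within each fraction. Without a block for the replicate number, no member passed edgeR's quasi-likelihood test with adjustment over all miRNAs tested (229 in total RNA, 47 of them members, and 215 in AGO1-IP, 52 of them members), and all adjusted p-values of treatment comparisons and loading changes are from this test. With the block, 2 members passed for HS against control in total RNA, miR780.2 and miR865-5p, beside 10% of all miRNAs tested, and 0 members in each other comparison. In total RNA the share of all miRNAs called was 0% for HS against control, recovery against control and recovery against HS, and in AGO1-IP it was 1.86%, 0.465% and 0.465%. At an unadjusted p under 0.05 there were 2, 1 and 3 members in the total RNA comparisons, in the same order. Over all 229 miRNAs tested there these counts were 25, 4 and 7. In AGO1-IP 0, 0 and 1 members had such a p, beside 13, 8 and 12 of all 215. DESeq2 called 0 members in each, beside 1, 0 and 0 of all miRNAs in total RNA and 5, 5 and 4 in AGO1-IP. After HS 35 of 47 members had a positive log2 value in total RNA, with a median of 0.42 against 0.01 over all miRNAs tested. For recovery against control 33 of 47 were positive, with a median of 0.17 against 0.02. The 47 include rows of identical sequence, such as miR447a-3p and miR447b, so that they are not 47 separate values. In AGO1-IP the medians for HS against control were 0.07 over the members and -0.11 over all tested.

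**Figure D4:**
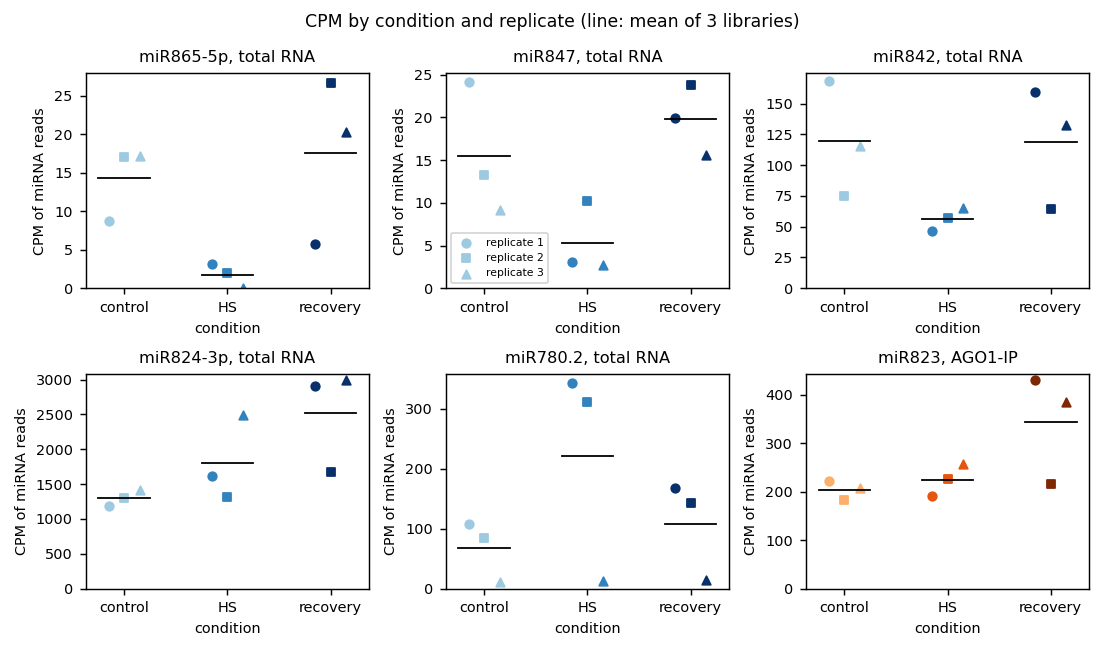
CPM of miRNA reads (linear axes from 0) by condition for 5 members in total RNA and for miR823 in AGO1-IP, with 1 symbol per replicate number and a line for the mean of 3 libraries. The 3 HS libraries of miR865-5p lie below all control and recovery libraries, and replicate 3 of miR780.2 lies near 10 to 14 CPM in every condition.

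In total RNA the smallest p-values for HS against control belonged to miR865-5p, miR842 and miR847, all lower after HS. The counts of miR865-5p were 4, 18 and 15 in control, 1, 1 and 0 under HS and 2, 19 and 13 after recovery. No HS library overlapped a control or recovery library in CPM. Over the 3 libraries of each group, 37 control reads against 2 HS reads gave a ratio of 12 (exact 95% interval 3.10 to 102.9, counting error only), and the fitted log2 value was -3.25 ± 0.97 (p = 0.00692, adjusted p = 0.392, edgeR). With the replicate number as a block it was -3.34 ± 1.00 (adjusted p = 0.0366, edgeR). Recovery against HS gave a ratio of 15.5 (3.96 to 132.8) and an adjusted p of 0.499 in edgeR. In AGO1-IP this miRNA, which begins with A, had 1 read in control, 0 after HS and 4 after recovery, all of the last in replicate 1.

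The auxin regulator miR847 had 24.1, 13.2 and 9.15 CPM in control, 3.11, 10.2 and 2.71 under HS and 19.9, 23.8 and 15.6 after recovery, and control and HS overlapped. Its log2 value was -1.42 ± 0.66 for HS against control (adjusted p = 0.424) and 1.79 ± 0.66 for recovery against HS (adjusted p = 0.859). In AGO1-IP the HS value was -0.43 ± 0.56 (adjusted p = 0.994), and the loading change by HS, the interaction of HS with the fraction, was 1.05 ± 1.01 (adjusted p = 0.979). The jacalin-lectin regulator miR842 had 169, 74.6 and 116 CPM in control, 46.6, 56.9 and 65.1 under HS and 159.3, 64.4 and 133 after recovery. All 3 HS libraries lay below the control libraries, and the value was -1.01 ± 0.43 (adjusted p = 0.414). Its recovery value against HS was 0.97 ± 0.43 (adjusted p = 0.859).

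For recovery against control in total RNA the smallest p-values belonged to miR824-3p, miR841a-5p and miR845b. The miR824-3p strand had 1185, 1299.8 and 1420.3 CPM in control, 1612, 1321 and 2489.5 under HS and 2905, 1679.9 and 2996 after recovery, with every recovery library above every control library. Its log2 value was 0.89 ± 0.36 (adjusted p = 0.995, edgeR), and that of its partner miR824-5p was 0.52 ± 0.44 (adjusted p = 0.995). The values were -1.29 ± 0.66 for miR841a-5p and 1.00 ± 0.71 for miR845b. In both of these the groups overlapped.

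In AGO1-IP no difference of a member between treatments passed, with the block or without it. For recovery against control the smallest p belonged to miR823, with the CPM given above, at a log2 value of 0.63 ± 0.30 (adjusted p = 0.906, edgeR). Replicates 1 and 3 after recovery (431 and 384 CPM) lay above all control libraries and replicate 2 (216 CPM) within them. The next were miR472-3p (-1.08 ± 0.63) and miR842 (-0.65 ± 0.42). For HS against control they were miR860 (0.45 ± 0.38), miR869.2 (0.59 ± 0.50) and miR858a (0.35 ± 0.35), each with an adjusted p of 0.994 in edgeR. For recovery against HS they were miR830-3p (-1.55 ± 0.72), miR851-5p (-1.36 ± 0.71) and miR841a-3p (-0.93 ± 0.51). Their mean counts over the 18 libraries were 8.89, 8.33 and 29.3. No member passed for a loading change by HS or by recovery (0.372% and 0% of all miRNAs tested). In either, 0 members had an unadjusted p under 0.05, beside 11 and 6 of all 269 miRNAs tested.

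By role, the median log2 value for HS against control in total RNA was 0.40 over the 5 members of the transcription and auxin list. It was 0.67 over 6 of the metabolism list, 0.03 over 3 jacalin regulators and 0.32 over the 2 strands of miR840. Over miR845a and miR845b it was 0.68, and over 26 members without an assigned role 0.43. The 2 immune-list members tested were the strands of miR472, at -0.47 ± 0.60 for 3p and 0.56 ± 0.35 for 5p (median 0.05). The median over all miRNAs tested was 0.01. The single chromatin regulator tested there, miR823, had -0.56 ± 0.32 (adjusted p = 0.461). Without the block no member of a role list passed in any treatment comparison, and with it miR780.2 of the metabolism list did.

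Replicate 3 of total RNA differed from the other 2 replicates in the same way in all 3 conditions for several members. For miR780.2 the counts of replicates 1, 2 and 3 were 49, 90 and 9 in control, 110, 153 and 9 under HS and 59, 102 and 9 after recovery. In CPM, replicates 1 and 2 went from 107 and 85.0 in control to 342 and 311 after HS, while replicate 3 had 10.3 and 12.2. The fitted log2 value for HS against control over all 3 was 1.72 ± 1.26 (adjusted p = 0.559), and the blocked value was 1.5 ± 0.34 (adjusted p = 0.00975, edgeR). The rows of miR771 (17, 10 and 0 reads in control, 20, 35 and 0 under HS and 11, 10 and 1 after recovery) and of miR447c-5p (16, 13 and 3 in control, 20, 36 and 2 under HS and 13, 10 and 3 after recovery) were also lowest in replicate 3, and both are named here after their values were seen. Of 38 members compared, 4 were lowest and 8 highest in replicate 3 in all 3 conditions, the latter including miR858b, miR824-5p and miR869.2. Over all 269 miRNAs, members among them, the deviations of total RNA replicate 3 from the group means also went together between conditions (r = 0.698 to 0.762). In AGO1-IP the CPM of miR780.2 in replicate 3 (8.73 to 10.3) lay within the range of replicates 1 and 2 (5.92 to 17.7). What set replicate 3 apart was not tested.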

How the data were processed

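Per the labels and the study's methods, the authors made small RNA libraries with a RealSeq kit from total RNA and from endogenous AGO1 immunoprecipitates, trimmed them with Cutadapt 2.9 and mapped them with Bowtie2 to TAIR10. The values the authors deposited were raw read counts per mature miRNA, with no normalisation. How reads mapping to several loci were counted, and whether strand was used, is not given in the sources used here. Sample columns were assigned to libraries by name (0 columns left out). The files' comparison with RefSeq TAIR10.1 was by miRNA name, since they give no coordinates.

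Counts of all 422 miRNAs were fitted with edgeR 4.0.16 in R 4.3.3 (quasi-likelihood test, robust, filterByExpr, TMM factors, Benjamini-Hochberg adjustment at 0.05 over all miRNAs tested), with the 9 libraries of a fraction or all 18 in 1 fit. The study names DESeq2, which was run as an alternative (1.42.0). The script was tested on simulated data. Strand ratios were tested by exact sign flips over library pairs in Python 3.11.15, chosen after the values were seen. Intervals cover counting error only, since PCR reads carried no molecular identifiers, and library sizes are miRNA reads, not sequencing depth.

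Members named were the 12 most abundant, those passing a comparison (for AGO1-IP against total RNA up to 10 in each direction, where the mean count reached 20), the 3 smallest p-values per treatment comparison, given examples (miR472, miR823, miR824, miR840, miR842, miR847, miR865), role-list members with a mean of at least 20 counts, strand pairs, and examples of absent or shared sequences. The members and lists were chosen with earlier results of these data known. Replicates are separate biological samples per the study.

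The study made total RNA and AGO1-IP libraries from the same biological replicates, so that same-numbered libraries of a condition were taken as paired. Their deviations from the group means had r = 0.140 to 0.284 in control, 0.017 to 0.123 under HS and 0.028 to 0.123 after recovery. Between conditions, same-numbered libraries deviated together in total RNA for recovery with control (r = 0.264 to 0.756) and with HS (0.490 to 0.762), and in AGO1-IP for HS with recovery (0.322 to 0.550). For HS with control in total RNA r was 0.508 and 0.698 for numbers 1 and 3 and -0.0037 for number 2. No source says that a number was shared between conditions, and values with the block are printed where they change a call. Alternatives were RLE scaling, no scaling factor, DESeq2, no filter, a mean of at least 20 counts, identical sequences summed, each library left out, the replicate block, and only the groups compared.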

Additional observations from a re-analysis of the deposited data

How the results depend on the processing

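In the 6 treatment comparisons and both loading changes, 0 members passed under every alternative run, with 1 exception. With the replicate number as a block, 2 members passed for HS against control in total RNA, miR780.2 and miR865-5p, beside 23 of all 229 miRNAs tested. For AGO1-IP against total RNA the block gave 31 members higher and 15 lower, and no member lost its call. Of the scalings, RLE gave 19 members higher and 21 lower, no factor 7 and 28, and TMM 29 and 15. Over all 269 miRNAs tested these counts were 78 and 137, 46 and 167, and 106 and 107. Reversed without a factor were 11 members called with TMM, miR781a (-0.61), miR824-5p (-0.58), miR833a-5p (-0.39), miR833b (-0.44), miR841b-3p (-0.36), miR842 (-0.062), miR845a (-0.82), miR846-5p (-0.84), miR848 (-0.36), miR850 (-0.48) and miR862-5p (-0.14), and with RLE and DESeq2 miR845a (-0.023 and -0.026) and miR846-5p (-0.024 and -0.025). Here the scaling factor itself moved the values, as the median of all miRNAs moved with it. Leaving out 1 library at a time gave 24 to 35 members higher and 15 to 17 lower, with no matching counts over all miRNAs printed here. The calls of 6 members were lost in at least 1 case. The values there were 0.64 for miR824-5p, 0.75 to 0.85 for miR781a, 0.91 to 0.95 for miR841b-3p, 0.52 to 0.63 for miR845a, 0.50 to 0.63 for miR846-5p and 0.76 to 0.84 for miR850. The gap between medians of members that begin with U and with other bases was 4.01 with TMM, 4.04 with RLE or no factor, and 2.27 among members with a mean of at least 20 counts, a smaller set. The share of miRNA reads in the members without miR858b and miR824-3p was 0.635%, 0.807% and 0.739% in total RNA control, HS and recovery, and 0.465%, 0.496% and 0.481% in AGO1-IP. Depth limited 43 of the 101 members, which did not reach the test in the fit of all 18 libraries, and no absence is read from their counts.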
